A study of Mus musculus with 7 samples.

Results

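MMTV-PyMT and MMTV-Neu tumors, the luminal mammary tumor models of the series, were compared with each other over all genes. The comparison held 4 of the 7 samples of the series, 2 tumors of each type, and no other library entered it. Cells were kept when they had at least 1000 unique molecular identifiers (UMIs, counts of single captured transcripts), at least 500 genes and under 20% of UMIs from mitochondrial genes, which left 1947 and 1842 cells of PyMT replicates A and B and 2308 and 1997 cells of Neu replicates A and B, that is 8094 of the 12168 cells that passed in all libraries. The UMIs of the cells of each tumor were summed, so that the tumor was the replicate.

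Both tumor types were on the FVB/NJ background, came from adult mice, were untreated and were taken at a size of about 1000 mm3. The PyMT tumors were transplants into the mammary fat pads of wild-type FVB/NJ hosts, and both grew from FF99WT, a cell line made from 1 spontaneous MMTV-PyMT tumor that carried floxed FIP200 alleles and no Cre recombinase. The Neu tumors arose in MMTV-Neu mice themselves, a strain that had also been crossed with FIP200 F/F mice, and at least the tumor of replicate A likewise carried floxed FIP200 alleles without Cre. The methods of the study give the age of the hosts when obtained for transplantation, and no age for the MMTV-Neu mice. The oncogene, the passage in culture of the FF99WT line, the transplantation and the age of the mouse therefore cannot be told apart here. This holds for any difference given, and both PyMT tumors descend from the same line. Cells were sorted as CD24+ and negative for CD31, CD45 and Ter119. Replicate A libraries and replicate B libraries were sequenced in separate batches, so the replicate letter is also the batch.

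MMTV is a viral promoter that is active in mammary epithelium and responds to steroid hormones. PyMT, the polyomavirus middle T antigen, is a membrane-bound protein that recruits Src family kinases and the MAPK and PI3K pathways, whereas Neu is the rat form of the receptor tyrosine kinase ErbB2. Luminal progenitors of the mammary gland give rise to alveolar cells, which make milk under prolactin through the transcription factor STAT5, and weaning sets off involution through STAT3 and the NF-kB pathway.

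The kept cells held 18119851 and 37693300 UMIs in PyMT replicates A and B and 22126786 and 33661546 in Neu, so that 3 UMIs stood for 0.0845 to 0.182 CPM (UMIs per 1000000 UMIs of the library size scaled by TMM) in a library. Median UMIs per cell ranged from 8609 to 19410.5, median genes from 2289 to 3412.5 and median mitochondrial shares from 3.477% to 4.983%. Both B libraries were deeper than both A libraries. Among the 4 libraries 43 barcode sequences occurred more than once. Epcam, an epithelial adhesion molecule, was at 3762 and 2941 CPM in PyMT and 2808 and 2412 CPM in Neu, and Cd24a, the antigen of the sort, was at 648 and 650.5 CPM in PyMT and 494 and 427 CPM in Neu (adjusted p = 0.328 and 0.140). Of 20 leukocyte markers 6 were tested, with summed levels of 11.5 and 11.7 CPM in PyMT and 7.53 and 3.05 CPM in Neu. Ptprc, which encodes CD45, had 1 UMI in PyMT replicate A and 0 in the other libraries. Cdh5 of endothelial cells was at 0 in every library. Of 15 fibroblast and pericyte markers 10 were tested, none was called, and their summed levels were 42.8 and 61.9 CPM in PyMT and 54.8 and 58.2 CPM in Neu. Cells with a UMI of at least 3 fibroblast or pericyte markers numbered 2 and 36 in PyMT and 7 and 40 in Neu.

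Of 12668 genes tested with edgeR's quasi-likelihood test, 4299 (33.9%) differed between the tumor types at a Benjamini-Hochberg adjusted p under 0.05. These were 2099 genes (16.6%) higher in PyMT and 2200 genes (17.4%) higher in Neu. The counts of called list members given below are to be read beside these shares. At an unadjusted p under 0.05 there were 5853 genes. The levels of the libraries did not overlap between the types for 9226 genes (72.8%). Large fitted differences were common on both sides, since 853 of the genes higher in PyMT and 1088 of those higher in Neu differed by at least 2 log2 units, and 77 and 174 by at least 6. These counts include genes with few or no UMIs in one type, whose fitted values depend on the prior count. Klk12, fitted at 8.73 log2 units, had no UMI in Neu and a lower bound of 18.7-fold. The log2 CPM of replicates had a Pearson's r of 0.968 in PyMT and 0.966 in Neu over the tested genes, against 0.804 to 0.822 for pairs of unlike tumors. Genes are not independent replicates, so these are descriptions. Scaling by library totals alone moved the median log2 fold change of all genes from -0.01 to -0.23, and the split of calls became 1555 higher in PyMT and 2701 higher in Neu. A left-out library lowered the calls to 2248 without PyMT replicate A, 2487 without PyMT replicate B, 2317 without Neu replicate A and 2706 without Neu replicate B.

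**Figure D1:**
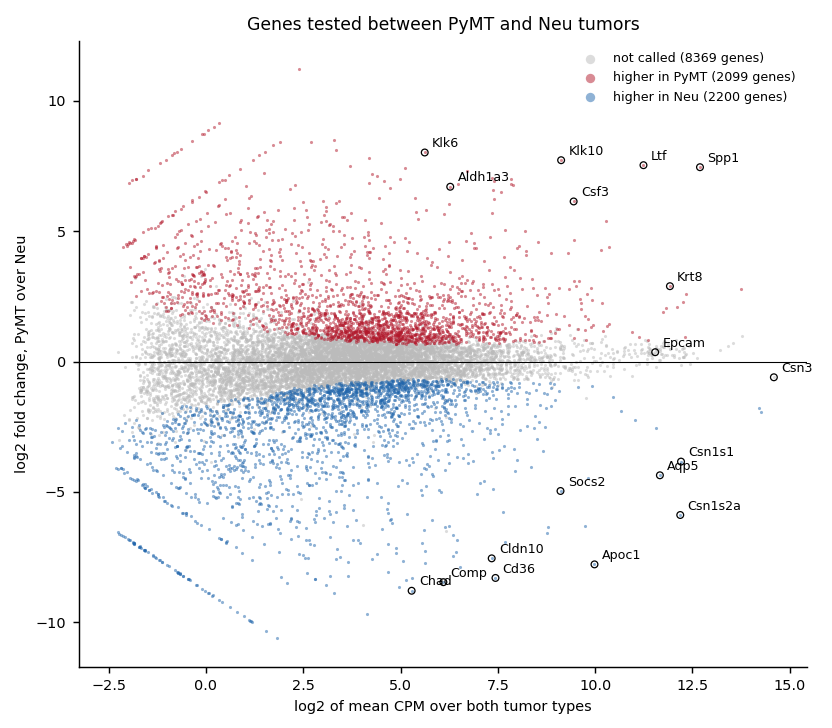
Each point is 1 of the 12668 tested genes; the x axis is the log2 of the mean CPM over both tumor types and the y axis the log2 fold change of PyMT over Neu. Red points are the 2099 genes higher in PyMT, blue points the 2200 higher in Neu, grey points were not called, and the diagonal rows of points at low CPM are genes with few or no UMIs in one tumor type, whose fitted values depend on the prior count.

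The 12 largest increases in PyMT among genes of at least 50 CPM were led by Klk6 (ENSMUSG00000050063, chromosome 7 from 43824499 to 43832030 of GRCm38), a secreted serine protease of the kallikrein family. Klk6 was at 86.6 and 109 CPM in PyMT and 0.431 and 0.323 CPM in Neu (log2 fold change 8.02 with a standard error of 0.34, adjusted p = 0.000239). Klk10 (ENSMUSG00000030693, chromosome 7 from 43781035 to 43785410), its neighbor and relative, was at 1246 and 977 CPM in PyMT and 6.67 and 3.85 CPM in Neu (log2 fold change 7.73 with a standard error of 0.43, adjusted p = 0.000263). Klk6 had 11 UMIs in each Neu tumor, and Klk10 had 170 and 131. Spp1 (ENSMUSG00000029304, chromosome 5 from 104435118 to 104441050), which encodes the secreted phosphoprotein osteopontin, was at 14999 and 11323 CPM in PyMT and 103 and 46.4 CPM in Neu (log2 fold change 7.46 with a standard error of 0.55, adjusted p = 0.000494). Fam107b was at 442 and 228 CPM in PyMT and 2.67 and 2.85 CPM in Neu (log2 fold change 6.92). Wincr1, a noncoding RNA (ENSMUSG00000085183, chromosome 4 from 89050308 to 89084614), was at 83.3 and 54.3 CPM in PyMT and 0.510 and 0.294 CPM in Neu (log2 fold change 7.44). The others reported here were Ltf, Ifi203, Ifi202b, Mndal, Tnfaip2 and Krt19, described with their families.

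In Neu the largest increase among called genes of at least 50 CPM was that of Chad, chondroadherin, a matrix protein of cartilage (ENSMUSG00000039084, chromosome 11 from 94565047 to 94569127), at 0.121 and 0.197 CPM in PyMT and 70.9 and 84.6 CPM in Neu (log2 fold change -8.79 with a standard error of 0.36, adjusted p = 0.000239). Acsf2, an acyl-CoA synthetase that overlaps Chad on the opposite strand, was at 0.790 and 0.0563 CPM in PyMT and 72.6 and 59.1 CPM in Neu (log2 fold change -7.64), and whether the counting used strand was not stated in the labels or methods. Slc6a2, the noradrenaline transporter, was at 0.121 and 0.169 CPM in PyMT and 50.6 and 74.6 CPM in Neu (log2 fold change -8.64 with a standard error of 0.42, adjusted p = 0.000241). Each of these was at or under 1 CPM in both PyMT tumors. Sod3, the extracellular superoxide dismutase, was at 0.121 and 0.253 CPM in PyMT and 79.4 and 61.8 CPM in Neu (log2 fold change -8.38). Alkal2, a ligand of the receptor tyrosine kinase ALK, was at 0.425 and 1.01 CPM in PyMT and 118 and 248 CPM in Neu (log2 fold change -7.88). Cck, the peptide hormone cholecystokinin, differed more between the Neu tumors, at 0.243 and 0.591 CPM in PyMT and 26.8 and 172 CPM in Neu (log2 fold change -7.74, adjusted p = 0.00306). The genes of mitochondrial proteins Efhd1, at 0.425 and 0.141 CPM in PyMT and 117 and 39.9 CPM in Neu (log2 fold change -8.31), and Slc25a34, at 0.364 and 0.0845 CPM in PyMT and 73.7 and 28.1 CPM in Neu (log2 fold change -8.08), were also higher in Neu replicate A than in B. Of these 24 largest changes Krt19 was the only one whose call was lost when a library was left out. No gene combined at least 50 CPM in both tumors of one type with at most 3 UMIs in each tumor of the other.

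Milk protein genes split between the tumor types. Of 15 milk protein genes, all tested, 5 were higher in PyMT and 5 in Neu, with a median log2 fold change of -0.08 against -0.01 over all genes. Of these calls 4 and 3 held whichever library was left out. The calcium-binding caseins of the α type were higher in Neu. Csn1s1 (ENSMUSG00000070702, chromosome 5 from 87666208 to 87682578) was at 173 and 1062 CPM in PyMT and 9221 and 8433 CPM in Neu (log2 fold change -3.84 with a standard error of 0.80, adjusted p = 0.0126). Csn1s2a (ENSMUSG00000061937, chromosome 5 from 87774567 to 87788797) was at 38.6 and 271 CPM in PyMT and 6984 and 11337 CPM in Neu (log2 fold change -5.89 with a standard error of 0.96, adjusted p = 0.00537). In both, PyMT replicate B was several times above PyMT replicate A, and neither reached Neu. Lalba, α-lactalbumin of lactose synthesis, was at 282 and 1481 CPM in PyMT and 5460.4 and 4827 CPM in Neu (log2 fold change -2.54 with a standard error of 0.70, adjusted p = 0.0325) and no longer passed without Neu replicate A or B (adjusted p up to 0.0945). The κ-casein gene Csn3 was abundant in every tumor, at 19166 and 20042 CPM in PyMT and 26633 and 32859.9 CPM in Neu (log2 fold change -0.60, adjusted p = 0.141), and is the casein that keeps the micelle in solution. Csn2, β-casein, followed the replicate letter more than the tumor type, at 22.3 and 1596 CPM in PyMT and 97.5 and 2005 CPM in Neu (log2 fold change -0.38, adjusted p = 0.881, and 0.0260 in the fit with the replicate letter as a block, below called the replicate block).

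Other milk proteins were higher in PyMT. Ltf, lactoferrin, an iron-binding protein of milk and of involution, was at 6150.2 and 3477 CPM in PyMT and 33.6 and 18.2 CPM in Neu (log2 fold change 7.54 with a standard error of 0.54, adjusted p = 0.000474). Wap (ENSMUSG00000000381, chromosome 11 from 6635482 to 6638637), whey acidic protein, was at 68.04 and 731 CPM in PyMT and 6.86 and 17.4 CPM in Neu (log2 fold change 5.04 with a standard error of 1.12, adjusted p = 0.0154), and it no longer passed without Neu replicate A or B (adjusted p up to 0.0856). The PyMT tumors differed by an order of magnitude, and the lower of them was still above both Neu tumors. Wfdc3, a gene of the same four-disulfide core family, was at 464 and 198 CPM in PyMT and 5.02 and 3.76 CPM in Neu (log2 fold change 6.24 with a standard error of 0.51, adjusted p = 0.000615). Another member of that family was higher in Neu. Wfdc18 was at 7579 and 9419 CPM in PyMT and 20706 and 38126 CPM in Neu (log2 fold change -1.79 with a standard error of 0.38, adjusted p = 0.0130), a call that was lost without either PyMT library (adjusted p up to 0.111). Muc1, the mucin of the apical membrane and of the milk fat globule, was at 54.01 and 35.8 CPM in PyMT and 4.51 and 4.199 CPM in Neu (log2 fold change 3.36, adjusted p = 0.000817). The milk proteins of a tumor type therefore did not move as one group.

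The promoters of the genes that carry this split are shown because the first 2 were lower in PyMT, the third followed the replicate letter and the last was higher in PyMT. They are RefSeq sequences of GRCm38.p6, from 250 bases before to 50 bases after the transcription start, 5′ to 3′ on the strand of the gene. Capitals mark TTCNNNGAA, the consensus of STAT factors, which reads the same on both strands.
Csn1s1, chr5:87665958-87666257, plus strand: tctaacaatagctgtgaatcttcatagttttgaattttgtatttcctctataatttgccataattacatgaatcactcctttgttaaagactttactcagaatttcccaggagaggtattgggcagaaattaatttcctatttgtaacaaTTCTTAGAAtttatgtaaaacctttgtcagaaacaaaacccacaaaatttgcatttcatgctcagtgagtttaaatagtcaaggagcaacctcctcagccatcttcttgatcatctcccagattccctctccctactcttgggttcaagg
Csn1s2a, chr5:87774200-87774499, plus strand: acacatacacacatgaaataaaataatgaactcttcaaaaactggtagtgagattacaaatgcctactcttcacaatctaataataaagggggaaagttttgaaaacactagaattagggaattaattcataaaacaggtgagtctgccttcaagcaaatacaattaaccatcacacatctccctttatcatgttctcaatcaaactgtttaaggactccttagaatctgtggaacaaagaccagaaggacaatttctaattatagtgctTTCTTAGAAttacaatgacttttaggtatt
Csn2, chr5:87699376-87699675, minus strand: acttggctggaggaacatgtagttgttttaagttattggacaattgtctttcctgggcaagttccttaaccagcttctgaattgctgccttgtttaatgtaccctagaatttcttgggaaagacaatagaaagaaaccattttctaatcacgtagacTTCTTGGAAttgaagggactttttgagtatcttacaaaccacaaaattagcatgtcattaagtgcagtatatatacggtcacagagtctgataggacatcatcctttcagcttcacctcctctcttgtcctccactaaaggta
Wap, chr11:6638600-6638899, minus strand: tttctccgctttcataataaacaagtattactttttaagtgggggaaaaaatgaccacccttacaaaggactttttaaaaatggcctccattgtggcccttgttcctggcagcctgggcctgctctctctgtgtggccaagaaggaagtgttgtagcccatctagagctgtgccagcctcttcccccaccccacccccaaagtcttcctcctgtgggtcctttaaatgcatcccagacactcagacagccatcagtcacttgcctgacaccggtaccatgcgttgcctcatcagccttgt

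Of the 15 milk protein genes 12 had a promoter in the table, and 4 of their 13 promoters (30.8%) held the motif, against 2726 of all 32851 promoters (8.30%). The 4 were those of Csn1s1, with the motif starting 100 bases before the start site, Csn2, at 93 before it, Glycam1, at 145 before it, and Csn1s2a, at base 21 after the RefSeq start site. The Csn1s2a coordinates given above start at 87774567, past the end of its window at 87774499. By those coordinates its motif also lies before the gene. Csn1s1 and Csn1s2a were higher in Neu, and Csn2 and Glycam1 were not called. The longer TTCCNGGAA, which is contained in the first motif, was in none of these 13 promoters and in 1.15% of all. Among the 19 promoters of 12 prolactin and STAT5 genes, 3 held TTCNNNGAA, those of Cish, Prlr and Socs3. The Cish promoter is shown because Cish is a STAT5 target that was higher in Neu, and it held the motif at both base 1 and base 12 of the transcript, the former also a match to TTCCNGGAA. A match is a match of letters and not a measured binding site. Bases outside these windows were not searched, and a link between the motif and the split of the milk genes was not tested.
Cish, chr9:107296409-107296708, plus strand: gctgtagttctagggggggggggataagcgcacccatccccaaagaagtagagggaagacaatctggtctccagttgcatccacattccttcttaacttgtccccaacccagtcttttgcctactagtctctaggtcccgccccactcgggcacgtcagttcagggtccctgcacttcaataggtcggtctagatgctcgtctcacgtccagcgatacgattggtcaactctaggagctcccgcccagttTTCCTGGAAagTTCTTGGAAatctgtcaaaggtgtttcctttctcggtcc

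Of the prolactin and STAT5 genes, 6 of 14 tested members were higher in Neu, 2 in PyMT and 6 were not called (median log2 fold change -0.55), and 5 and 1 of these calls held whichever library was left out. The share called was 57.1%, against 33.9% of all genes. Stat5a (ENSMUSG00000004043, chromosome 11 from 100859351 to 100885169), the STAT of milk gene transcription, was at 2.92 and 4.42 CPM in PyMT and 39.1 and 54.7 CPM in Neu (log2 fold change -3.66 with a standard error of 0.33, adjusted p = 0.000862), and its relative Stat5b at 3.58 and 3.63 CPM in PyMT and 15.2 and 16.1 CPM in Neu (log2 fold change -2.11, adjusted p = 0.00223). Socs2 (ENSMUSG00000020027, chromosome 10 from 95385362 to 95417180), a suppressor of cytokine signaling that STAT5 induces, was at 34.9 and 33.6 CPM in PyMT and 1147 and 993 CPM in Neu (log2 fold change -4.96 with a standard error of 0.28, adjusted p = 0.000263). The PyMT and Neu libraries did not overlap for any of these, which was also so for 72.8% of all tested genes. Stat5a overlaps Stat3 on the opposite strand. Cited4, a transcriptional co-activator, was at 3.71 and 10.4 CPM in PyMT and 223 and 265 CPM in Neu (log2 fold change -5.08 with a standard error of 0.52, adjusted p = 0.00119). Cish, another STAT5 target, was at 15.2 and 15.8 CPM in PyMT and 42.6 and 27.4 CPM in Neu (log2 fold change -1.17, adjusted p = 0.0202), and its call was lost without either PyMT tumor or without Neu replicate A (adjusted p up to 0.106). The receptor gene Prlr was at 24.3 and 34.4 CPM in PyMT and 49.5 and 44.5 CPM in Neu and did not pass (adjusted p = 0.0754, and 0.0376 with the replicate block), nor did Jak2, its kinase, at 10.3 and 7.26 CPM in PyMT and 4.39 and 5.67 CPM in Neu (adjusted p = 0.0996). Elf5, an alveolar transcription factor, was at 42.9 and 95.1 CPM in PyMT and 98.9 and 86.9 CPM in Neu (adjusted p = 0.406), and the cyclin gene Ccnd1 at 164 and 120.4 CPM in PyMT and 175 and 105 CPM in Neu (adjusted p = 0.965). Socs1 was the opposite case among the suppressors, at 3.89 and 5.04 CPM in PyMT and 0.667 and 0.675 CPM in Neu (log2 fold change 2.73, adjusted p = 0.00457).

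Of 22 tested genes of milk fat and lipid metabolism 10 were higher in Neu and none in PyMT (median log2 fold change -0.97). Of the 10, 7 held whichever library was left out. With the replicate block 11 were higher in Neu and 1 in PyMT. Cd36 (ENSMUSG00000002944, chromosome 5 from 17781690 to 17888801), a fatty acid translocase, was at 0.547 and 1.49 CPM in PyMT and 205 and 486 CPM in Neu (log2 fold change -8.30 with a standard error of 0.68, adjusted p = 0.000615). Apoc1 (ENSMUSG00000040564, chromosome 7 from 19689481 to 19692660), an apolipoprotein, was at 5.89 and 12.2 CPM in PyMT and 857 and 3170.2 CPM in Neu (log2 fold change -7.78 with a standard error of 0.82, adjusted p = 0.00135), and Apoe, its neighbor, at 9.23 and 3.41 CPM in PyMT and 109 and 90.2 CPM in Neu (log2 fold change -4.00, adjusted p = 0.00201). Genes of fat synthesis were among those higher in Neu. Srebf1, the transcription factor of lipogenesis, was at 25.9 and 28.3 CPM in PyMT and 488 and 108 CPM in Neu (log2 fold change -3.46, adjusted p = 0.00969), the desaturase Scd1 at 161 and 39.4 CPM in PyMT and 743 and 432 CPM in Neu (log2 fold change -2.55, adjusted p = 0.0247) and the phosphatidate phosphatase Lpin1 at 1.76 and 2.17 CPM in PyMT and 19.8 and 10.5 CPM in Neu (log2 fold change -2.93, adjusted p = 0.00302). Srebf1 no longer passed without either PyMT library (adjusted p up to 0.0660), nor did Scd1 without Neu replicate A (adjusted p = 0.0939). Of the genes of the milk fat droplet, Xdh was higher in Neu, at 24.9 and 39.1 CPM in PyMT and 98.6 and 125 CPM in Neu (log2 fold change -1.80, adjusted p = 0.00547), whereas Btn1a1 was at 32.01 and 74.2 CPM in PyMT and 52.9 and 82.5 CPM in Neu (adjusted p = 0.550), Plin2 at 519 and 641 CPM in PyMT and 523 and 509 CPM in Neu (adjusted p = 0.610) and Mfge8 at 701 and 641 CPM in PyMT and 868 and 900.3 CPM in Neu (adjusted p = 0.220). Fasn, the fatty acid synthase, was at 50.97 and 80.4 CPM in PyMT and 47.2 and 31.9 CPM in Neu (adjusted p = 0.113). Adipocyte markers were not tested for want of UMIs, with Adipoq, the marker of that cell type, at 2 UMIs in Neu replicate B and 0 in the others.

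**Figure D2:**
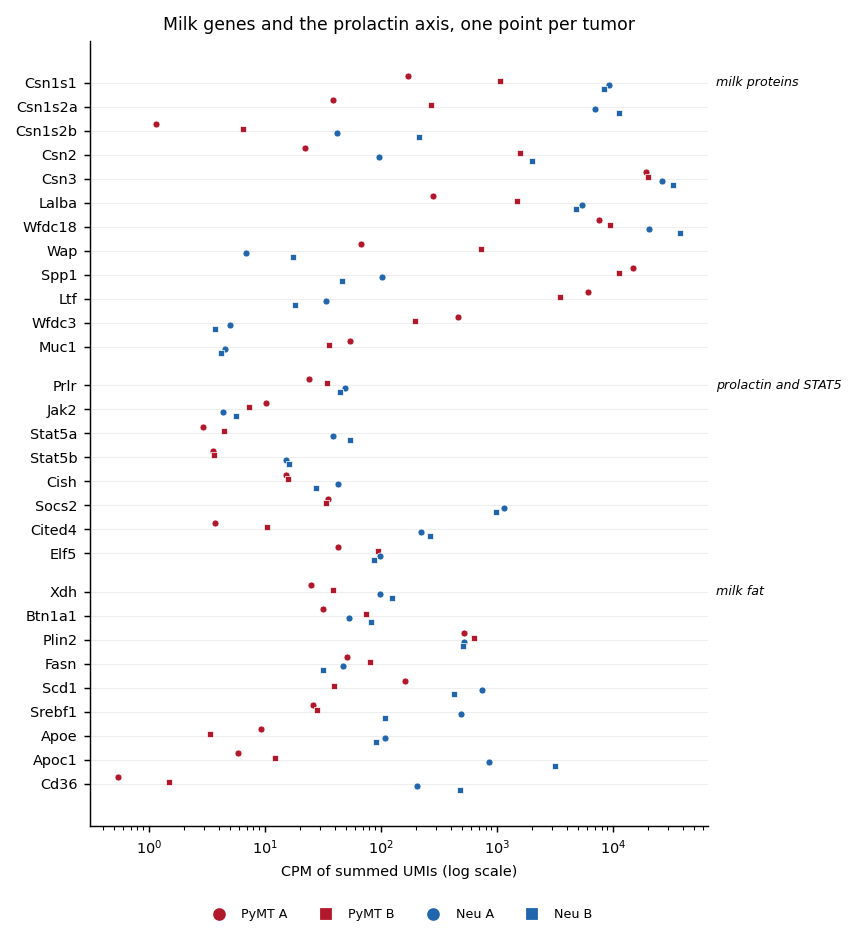
CPM of summed UMIs (x axis, log scale) of milk protein, prolactin and milk fat genes, with 1 point per tumor; red is PyMT, blue is Neu, with circles for replicate A, squares for replicate B. Csn1s1, Csn1s2a, Socs2, Cited4, Apoc1 and Cd36 lie to the right in Neu, Spp1, Ltf, Wfdc3 and Muc1 to the right in PyMT, and Csn2 separates by replicate letter.

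Of 13 genes of luminal keratins and identity 7 were higher in PyMT and 1 in Neu (median log2 fold change 2.10), with 4 and 0 holding whichever library was left out. The keratins of simple epithelium led these. Krt8 (ENSMUSG00000049382, chromosome 15 from 101996698 to 102004482) was at 6549.8 and 7114 CPM in PyMT and 683 and 1155 CPM in Neu (log2 fold change 2.89 with a standard error of 0.34, adjusted p = 0.00194), its partner Krt18 at 6804 and 7448 CPM in PyMT and 992 and 2311 CPM in Neu (log2 fold change 2.11 with a standard error of 0.43, adjusted p = 0.0115), and Krt7 at 843 and 586 CPM in PyMT and 22.3 and 37.5 CPM in Neu (log2 fold change 4.58 with a standard error of 0.38, adjusted p = 0.000669). Krt18 missed the threshold without PyMT replicate B (adjusted p = 0.0552). Krt19 was carried mainly by 1 tumor, at 335 and 15.97 CPM in PyMT and 2.16 and 0.969 CPM in Neu (log2 fold change 6.83 with a standard error of 1.44, adjusted p = 0.0130), and did not pass without Neu replicate A or B (adjusted p up to 0.0780). Without PyMT replicate A its log2 fold change was 3.38. Cdh1, E-cadherin, was at 248 and 178 CPM in PyMT and 38.7 and 49.8 CPM in Neu (log2 fold change 2.27, adjusted p = 0.00208), and Elf3, an epithelial transcription factor, at 62.9 and 39.5 CPM in PyMT and 13.6 and 10.3 CPM in Neu (log2 fold change 2.10, adjusted p = 0.00386). Gata3, the transcription factor of the luminal lineage, was the member higher in Neu, at 97.5 and 75.5 CPM in PyMT and 156 and 252 CPM in Neu (log2 fold change -1.24, adjusted p = 0.0215), and was not called without either PyMT tumor or without Neu replicate B (adjusted p up to 0.121).

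Luminal progenitor genes were divided, with 4 of 18 higher in PyMT and 7 in Neu (median log2 fold change -0.44). Beside Ltf, PyMT tumors had more of Aldh1a3 (ENSMUSG00000015134, chromosome 7 from 66390890 to 66427517), the aldehyde dehydrogenase that makes retinoic acid and marks luminal progenitors, at 204 and 103 CPM in PyMT and 1.29 and 1.61 CPM in Neu (log2 fold change 6.71 with a standard error of 0.45, adjusted p = 0.000462). Slpi, a secreted inhibitor of leukocyte proteases, was at 908 and 227 CPM in PyMT and 25.02 and 10.4 CPM in Neu (log2 fold change 5.00, adjusted p = 0.00470). Cd14, the lipopolysaccharide co-receptor, was at 424 and 330.1 CPM in PyMT and 203 and 220.3 CPM in Neu (log2 fold change 0.83 with a standard error of 0.24, adjusted p = 0.0382) and was not called when any of the 4 libraries was left out (adjusted p up to 0.184) or with library totals. Neu tumors had more of Hey1, a Notch target, at 14.9 and 12.5 CPM in PyMT and 75.4 and 56.4 CPM in Neu (log2 fold change -2.27 with a standard error of 0.25, adjusted p = 0.00158), of Krt23 at 1.03 and 0.338 CPM in PyMT and 15.3 and 23.6 CPM in Neu (log2 fold change -4.96 with a standard error of 0.55, adjusted p = 0.00153), and of the receptor kinase Kit at 8.32 and 11.97 CPM in PyMT and 35.8 and 51.1 CPM in Neu (log2 fold change -2.09, adjusted p = 0.00366). Tspan8, a tetraspanin of the cell surface, was at 331 and 333 CPM in PyMT and 568 and 594 CPM in Neu (log2 fold change -0.81, adjusted p = 0.0331) and also lost its call without any 1 library (adjusted p up to 0.157). Lcn2, lipocalin 2, was abundant in both types, at 15263 and 14008 CPM in PyMT and 9088 and 8946 CPM in Neu (adjusted p = 0.0806). The list thus had members at opposite ends of the comparison.

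The hormone receptor genes themselves were low in both tumor types. Esr1, the estrogen receptor gene, was at 2.19 and 2.28 CPM in PyMT and 4.51 and 4.35 CPM in Neu (adjusted p = 0.0694), and Pgr, the progesterone receptor gene, had 6 and 7 UMIs in PyMT and 0 in both Neu libraries and was not tested. Of 9 tested genes of the hormone-sensing lineage, 6 were higher in PyMT and 1 in Neu with the replicate block. With library totals these were 5 and 2. In the fit reported 6 were higher in PyMT and none in Neu (median log2 fold change 2.50). Of these 6, 3 held whichever library was left out. The leading one was S100a6, a calcium-binding protein found in many cell types (ENSMUSG00000001025, chromosome 3 from 90612882 to 90624181), at 2467 and 2377 CPM in PyMT and 56.4 and 57.2 CPM in Neu (log2 fold change 5.41 with a standard error of 0.28, adjusted p = 0.000241), followed by Ly6a, the Sca-1 antigen, at 41.6 and 46.7 CPM in PyMT and 3.999 and 1.76 CPM in Neu (log2 fold change 3.95 with a standard error of 0.42, adjusted p = 0.00138). Foxa1, the pioneer factor of this lineage, was low throughout, at 0.668 and 8.17 CPM in PyMT and 0.0392 and 0.0587 CPM in Neu (log2 fold change 6.37 with a standard error of 1.37, adjusted p = 0.0141), and was not called without Neu replicate A or B (adjusted p up to 0.0756).

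Of 16 tested genes of basal and myoepithelial cells, 6 were higher in PyMT and 2 in Neu (median log2 fold change 1.71), with 2 and 0 holding whichever library was left out. The share called was 50%, against 33.9% of all genes. Lgals7, galectin 7, was at 52.3 and 61.02 CPM in PyMT and 11.9 and 8.02 CPM in Neu (log2 fold change 2.51 with a standard error of 0.28, adjusted p = 0.00153), and the integrin gene Itgb4 at 72.8 and 87.97 CPM in PyMT and 16.7 and 29.98 CPM in Neu (log2 fold change 1.78 with a standard error of 0.32, adjusted p = 0.00779). Lama3, a laminin chain, had 9 and 31 UMIs in PyMT and 0 in Neu, at least 6.90-fold higher in PyMT (adjusted p = 0.00788), with no call without Neu replicate B (adjusted p = 0.0516). Oxtr, the oxytocin receptor of myoepithelium, was at 0.182 and 0.169 CPM in PyMT and 4.82 and 1.23 CPM in Neu (log2 fold change -4.08 with a standard error of 0.84, adjusted p = 0.0119), and lost its call without either PyMT tumor or without Neu replicate A (adjusted p up to 0.0811). Of the genes that define basal cells, Krt14 was at 13.3 and 32.6 CPM in PyMT and 1.29 and 6.25 CPM in Neu (log2 fold change 2.59, adjusted p = 0.0352) and Trp63 at 0.790 and 2.06 CPM in PyMT and 0.196 and 0.0881 CPM in Neu (log2 fold change 3.37, adjusted p = 0.0162), and neither was called without PyMT replicate B or Neu replicate A, nor Trp63 without Neu replicate B (adjusted p up to 0.171 and 0.144). The smooth muscle actin gene Acta2 was under 1 CPM in all 4 tumors (adjusted p = 0.404), and Krt5 was at 0.729 and 1.83 CPM in PyMT and 0.0392 and 0.734 CPM in Neu (adjusted p = 0.224, and 0.0459 with the replicate block).

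Junction genes were mostly higher in PyMT, with 13 of 25 tested members against 5 higher in Neu (median log2 fold change 0.99), and 7 and 4 held whichever library was left out. The claudins, which seal tight junctions, did not share a direction. Cldn10 (ENSMUSG00000022132, chromosome 14 from 118787908 to 118875489) was at 1.397 and 1.97 CPM in PyMT and 233 and 413 CPM in Neu (log2 fold change -7.55 with a standard error of 0.44, adjusted p = 0.000298), and Cldn8 at 1.397 and 1.55 CPM in PyMT and 25.996 and 14.2 CPM in Neu (log2 fold change -3.76 with a standard error of 0.39, adjusted p = 0.00131). Cldn4 was higher in PyMT, at 787 and 1025 CPM in PyMT and 177 and 358 CPM in Neu (log2 fold change 1.76 with a standard error of 0.38, adjusted p = 0.0141), without a call when PyMT replicate B was left out (adjusted p = 0.0715), as were Cldn1 at 162 and 155 CPM in PyMT and 16.5 and 28.95 CPM in Neu (log2 fold change 2.80, adjusted p = 0.00172) and Cldn7 at 791 and 719 CPM in PyMT and 322 and 304 CPM in Neu (log2 fold change 1.27, adjusted p = 0.00805). Cldn3 was abundant and close between types, at 927 and 1170.3 CPM in PyMT and 753 and 749.6 CPM in Neu (adjusted p = 0.174). Dsc2, a desmosomal cadherin, was at 0.182 and 0.113 CPM in PyMT and 11.6 and 11.9 CPM in Neu (log2 fold change -6.37 with a standard error of 0.43, adjusted p = 0.000462). Cdh3, P-cadherin, had no UMI in PyMT and 32 and 39 in Neu, at least 8.998-fold higher in Neu (adjusted p = 0.00454).

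The mouse Erbb2 gene was not called, at 16.6 and 8.45 CPM in PyMT and 22.3 and 19.4 CPM in Neu (log2 fold change -0.74 with a standard error of 0.36, adjusted p = 0.148, and 0.0369 with the replicate block). It overlaps Mien1 on the opposite strand, and how far transcripts of the rat transgene are counted under it was not tested. The PyMT transgene is not a mouse gene and has no row in the tables. Among the other receptors of the family, Erbb3 was at 37.5 and 35.3 CPM in PyMT and 27.4 and 49.1 CPM in Neu (adjusted p = 0.870), Egfr at 40.4 and 25.8 CPM in PyMT and 13.8 and 18.8 CPM in Neu (log2 fold change 1.02, adjusted p = 0.0422), and Erbb4 at 0.121 and 0.0282 CPM in PyMT and 5.02 and 4.11 CPM in Neu (log2 fold change -6.13 with a standard error of 0.68, adjusted p = 0.00151). The call for Egfr was lost without PyMT replicate A, Neu replicate A or Neu replicate B (adjusted p up to 0.213). Of the 4 receptors only Erbb4 was called in every fit with a library left out.

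Among the ligands of these receptors, more were called. Areg, amphiregulin, a ligand of the EGF receptor that hormone-sensing cells secrete, was at 189 and 247 CPM in PyMT and 2.43 and 11.6 CPM in Neu (log2 fold change 4.95 with a standard error of 0.71, adjusted p = 0.00358). Hbegf, another EGF receptor ligand, was at 501 and 627 CPM in PyMT and 39.5 and 19.6 CPM in Neu (log2 fold change 4.25 with a standard error of 0.41, adjusted p = 0.00103). Nrg1, neuregulin 1, a ligand of ErbB3 and ErbB4, was at 20.9 and 12.7 CPM in PyMT and 0.863 and 0.793 CPM in Neu (log2 fold change 4.34 with a standard error of 0.38, adjusted p = 0.000810). Those 3 were higher in PyMT. Egf itself was higher in Neu, at 0.304 and 0.141 CPM in PyMT and 12.1 and 14.9 CPM in Neu (log2 fold change -6.05 with a standard error of 0.46, adjusted p = 0.000528). Tgfa was at 10.6 and 10.9 CPM in PyMT and 13.8 and 23.1 CPM in Neu (adjusted p = 0.0949), and Btc at 5.65 and 5.603 CPM in PyMT and 4.82 and 4.73 CPM in Neu (adjusted p = 0.568). In all, 6 of 15 tested receptors and ligands were higher in PyMT and 3 in Neu (median log2 fold change -0.07), with 3 and 2 holding whichever library was left out.

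Genes that MAPK signaling induces were also divided, with 4 of 20 members of the MAPK and PI3K list higher in PyMT and 6 in Neu (median log2 fold change -0.16), and 3 and 6 holding whichever library was left out. The share called was 50%, against 33.9% of all genes. Dusp5 (ENSMUSG00000034765, chromosome 19 from 53529109 to 53542431), a nuclear phosphatase of ERK, was at 378 and 226 CPM in PyMT and 13.3 and 8.99 CPM in Neu (log2 fold change 4.76 with a standard error of 0.38, adjusted p = 0.000588), and Fosl1, a component of the AP-1 factor, at 216 and 179 CPM in PyMT and 5.06 and 10.7 CPM in Neu (log2 fold change 4.64 with a standard error of 0.42, adjusted p = 0.000823). Dusp6, the cytoplasmic phosphatase of ERK, took the other direction, at 58.2 and 65.8 CPM in PyMT and 421 and 227 CPM in Neu (log2 fold change -2.39, adjusted p = 0.00351). So did the ETS factors Etv4, at 1.15 and 1.098 CPM in PyMT and 25.5 and 18.1 CPM in Neu (log2 fold change -4.27 with a standard error of 0.33, adjusted p = 0.000531), and Etv5, at 3.89 and 5.58 CPM in PyMT and 84.3 and 46.7 CPM in Neu (log2 fold change -3.78, adjusted p = 0.00116). Spry1, a feedback inhibitor of receptor tyrosine kinases, was at 0.972 and 1.27 CPM in PyMT and 21.6 and 21.5 CPM in Neu (log2 fold change -4.23 with a standard error of 0.30, adjusted p = 0.000475), whereas Spry2 was at 61.96 and 36.4 CPM in PyMT and 20.4 and 12.1 CPM in Neu (log2 fold change 1.60, adjusted p = 0.0172), a call lost without PyMT replicate A or Neu replicate B (adjusted p up to 0.0919). The insulin receptor substrate Irs1 was higher in Neu, at 2.55 and 1.58 CPM in PyMT and 11.6 and 14.8 CPM in Neu (log2 fold change -2.70, adjusted p = 0.00278). Myc was higher in PyMT, at 68.5 and 70.7 CPM in PyMT and 25.6 and 23.4 CPM in Neu (log2 fold change 1.51, adjusted p = 0.00326). Egr1, an immediate early target of ERK, was at 33.96 and 39.9 CPM in PyMT and 62.7 and 16.7 CPM in Neu (adjusted p = 0.901). Genes of the same negative feedback were thus found on both sides.

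**Figure D3:**
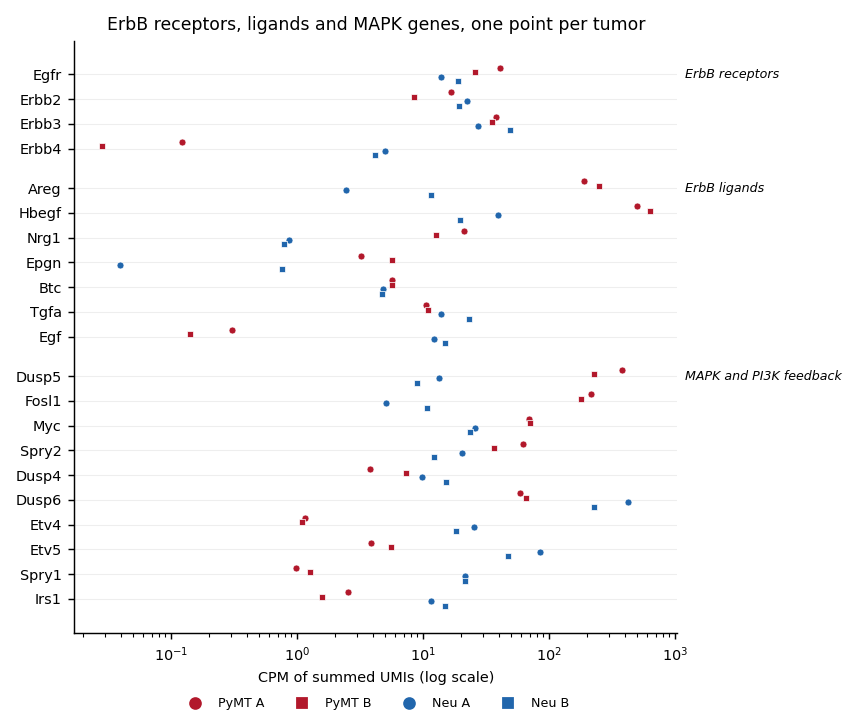
CPM of summed UMIs (x axis, log scale) of ErbB receptors, ErbB ligands and MAPK and PI3K genes, with 1 point per tumor; red is PyMT, blue is Neu, with circles for replicate A, squares for replicate B. Areg, Hbegf, Nrg1, Dusp5 and Fosl1 lie to the right in PyMT, and Erbb4, Egf, Dusp6, Etv4, Etv5 and Spry1 to the right in Neu.

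Of 21 tested kallikreins and serine protease inhibitors 15 were higher in PyMT and none in Neu. Their median log2 fold change was 5.08, or 4.52 with genes at 0 in Neu set to their lower bound. Of the 15, 12 held whichever library was left out. Of 25 genes on the list, tested or not, 7 had no UMI in Neu replicate A and 7 none in B, against 2 and 2 in PyMT. Members almost without UMIs in Neu passed the filter through PyMT and could only be called in that direction. Klk8 was at 12.8 and 10.5 CPM in PyMT and 0.196 and 0.206 CPM in Neu (log2 fold change 5.82 with a standard error of 0.40, adjusted p = 0.000462), Klk14 at 8.87 and 8.56 CPM in PyMT and 0.235 and 0.499 CPM in Neu (log2 fold change 4.52, adjusted p = 0.00119), and Klk11 at 4.43 and 1.61 CPM in PyMT and 0 and 0.0294 CPM in Neu (log2 fold change 7.14, adjusted p = 0.00358). With 0 and 1 UMI in Neu, the fold change of Klk11 depends on the prior count. Klk12 had 42 and 46 UMIs in PyMT and none in Neu, at least 18.7-fold higher (adjusted p = 0.00412), and Klk13 had 14 and 32 and none, at least 8.51-fold (adjusted p = 0.00551). Of the kallikreins only Klk10 and Klk6 were above 50 CPM. Plaur, the urokinase receptor, was at 353 and 399 CPM in PyMT and 2.31 and 5.81 CPM in Neu (log2 fold change 6.52 with a standard error of 0.50, adjusted p = 0.000531), and Plat, tissue plasminogen activator, at 48.8 and 17.1 CPM in PyMT and 1.18 and 0.382 CPM in Neu (log2 fold change 5.43, adjusted p = 0.00274). The membrane protease St14 was at 119 and 81.3 CPM in PyMT and 92.5 and 66.2 CPM in Neu (adjusted p = 0.395), and its inhibitor Spint2 at 779 and 640.5 CPM in PyMT and 1250.3 and 906 CPM in Neu (adjusted p = 0.131). Serpinb5, maspin, was at 182 and 147 CPM in PyMT and 62.5 and 43.7 CPM in Neu (log2 fold change 1.63, adjusted p = 0.00576).

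The kallikreins are neighbors, and a search for neighboring tested genes called in the same direction with at least 2 log2 units each, a rule chosen after the values had been seen, returned 51 runs of 3 or more genes, 24 higher in PyMT and 27 higher in Neu. The longest held 10 genes from Klk14 to Klk1b1 on chromosome 7, from 43690418 to 43971318. Of its genes, Klk12 and Klk13 had no UMI in Neu. Klk7, Klk9, Klk11 and Klk1b1 had 1 UMI in 1 Neu library and 0 in the other. Those genes passed the filter on low counts through PyMT and could only be called in that direction, so the length of the run depends on them. The next run held 7 genes of the interferon-inducible Ifi200 family on chromosome 1, from 173723427 to 174031810. In it Ifi203 was at 212 and 199 CPM in PyMT and 2.12 and 0.529 CPM in Neu (log2 fold change 7.32 with a standard error of 0.64, adjusted p = 0.000769), Ifi202b at 583 and 317 CPM in PyMT and 5.57 and 1.47 CPM in Neu (log2 fold change 7.01 with a standard error of 0.74, adjusted p = 0.00133), Mndal at 53.2 and 72.9 CPM in PyMT and 0.863 and 0.176 CPM in Neu (log2 fold change 6.99 with a standard error of 0.62, adjusted p = 0.000817) and Ifi204 at 52.9 and 31.3 CPM in PyMT and 0.471 and 0.147 CPM in Neu (log2 fold change 7.14). Members of this family are close copies of each other and Mndal overlaps Ifi203 and Ifi211 on the same strand, so the split of counts among them is uncertain. Another 5 genes from S100a3 to S100a8 lay on chromosome 3 from 90560578 to 90670035, with S100a6, S100a4 and S100a8 among them. In Neu the longest run was Gm33091 to Socs2, 5 genes on chromosome 10 from 95134290 to 95417180. Besides Socs2 it held Gm48882, at 0.668 and 0.788 CPM in PyMT and 104 and 80.3 CPM in Neu (log2 fold change -6.95), and Cradd, an adaptor of caspases, at 7.71 and 10.7 CPM in PyMT and 42.5 and 58.8 CPM in Neu (log2 fold change -2.45). What the genes of a run share beside their position was not tested.

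One of these runs, Rpl38 to Slc9a3r1, lay in a larger stretch at the end of chromosome 11 in which most genes were higher in PyMT. In 213 windows of 10 Mb with at least 20 tested genes each, which were added after the runs had been seen, the median log2 fold change of a window lay between -0.29 and 0.29 for the middle 80% of windows. The last 2 windows of chromosome 11, from 110 Mb on, had the highest medians of all, 1.51 over 110 genes and 1.71 over 56 genes, and the next highest window, on chromosome 5, had 0.61. Past 112 Mb of chromosome 11 there were 164 tested genes, of which 110 (67.1%) were higher in PyMT and 4 (2.44%) in Neu. Their median was 1.59, with quartiles of 0.87 and 2.24, and 146 of them had a positive log2 fold change. The medians were 1.63 within replicate A and 1.56 within replicate B. The 890 tested genes in the rest of the chromosome had a median of -0.04, with 146 higher in PyMT (16.4%) and 165 higher in Neu (18.5%), and all tested genes outside the stretch had a median of -0.02.

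The stretch held genes of unrelated function, named here after their values were seen. Actg1, cytoplasmic γ-actin, was at 24426 and 23915 CPM in PyMT and 3601 and 3322 CPM in Neu (log2 fold change 2.80 with a standard error of 0.28, adjusted p = 0.00116). H3f3b, a histone H3.3 gene, was at 7919 and 8317 CPM in PyMT and 1873 and 1442 CPM in Neu (log2 fold change 2.29, adjusted p = 0.00212). Rpl38, a ribosomal protein gene, was at 4938 and 6646 CPM in PyMT and 841 and 1931 CPM in Neu (log2 fold change 2.06, adjusted p = 0.0132). Sumo2, P4hb and Eif4a3 were also called, with log2 fold changes of 1.62, 1.82 and 1.98. Among the genes of the lists, Itgb4, Atp5h and Birc5, all higher in PyMT, lie in this stretch, as do the uncalled Sox9, Tk1, Socs3, Fasn and Slc16a3. The study inferred copy number variations from the RNA of its tumor cells, and its text names no region for PyMT or Neu tumors. DNA copy number was not measured, and the cause of the shift was not tested.

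**Figure D4:**
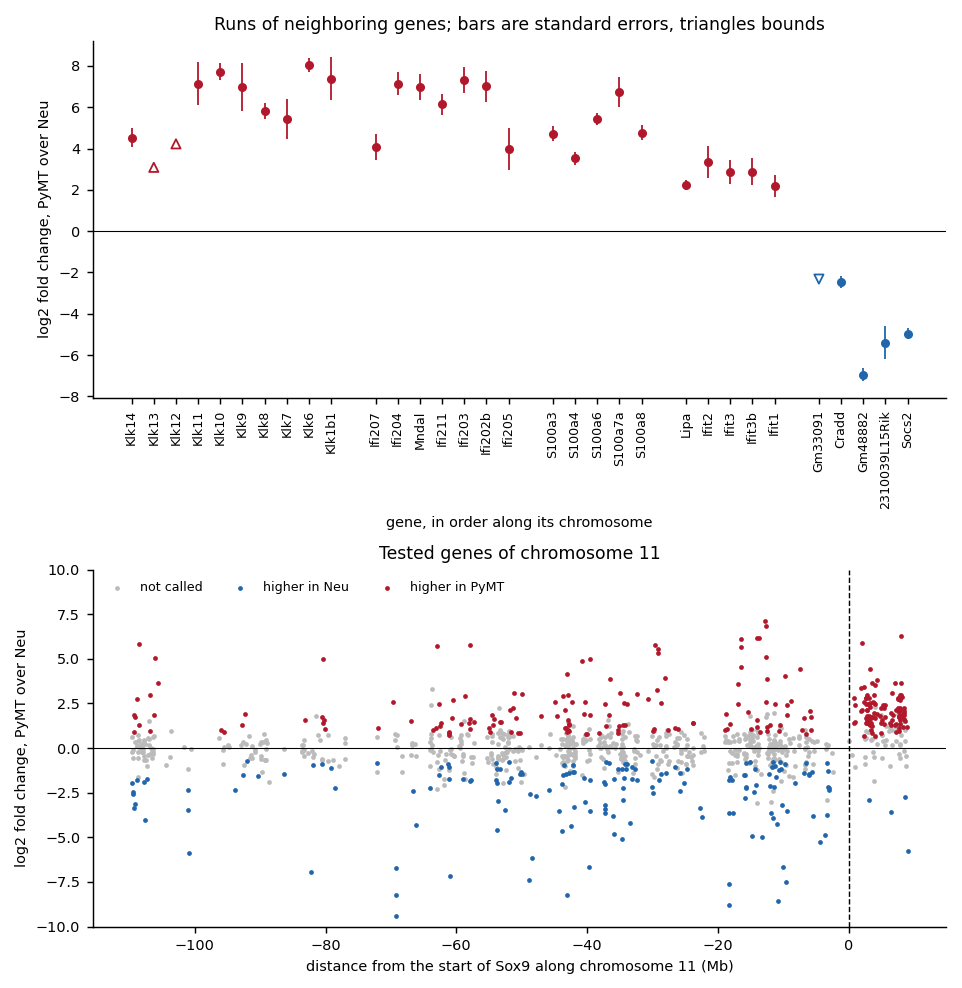
Upper panel, log2 fold change of PyMT over Neu (y axis) with its standard error for the genes of 5 of the 6 runs of at least 5 neighbors, in order along each chromosome. Red points are higher in PyMT and blue points higher in Neu; open triangles are genes without a UMI in one tumor type, drawn at the bound that 3 UMIs per library allow. Lower panel, log2 fold change of the 1054 tested genes of chromosome 11 against the distance in Mb from the start of Sox9, in the same colors with uncalled genes in grey; the genes to the right of the dashed line lie mostly above 0.

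Interferon response genes were higher in PyMT for 14 of 30 tested and in Neu for 1 (median log2 fold change 1.66), although only 4 of the 14 held whichever library was left out. Isg15, a ubiquitin-like protein, was at 164 and 406 CPM in PyMT and 31.5 and 18.8 CPM in Neu (log2 fold change 3.51 with a standard error of 0.50, adjusted p = 0.00353). Irf7, a transcription factor of the response, was at 168 and 269.98 CPM in PyMT and 38.7 and 27.1 CPM in Neu (log2 fold change 2.74 with a standard error of 0.33, adjusted p = 0.00202), and Isg20, an exonuclease, at 27.8 and 27.7 CPM in PyMT and 3.33 and 6.22 CPM in Neu (log2 fold change 2.53 with a standard error of 0.35, adjusted p = 0.00316). Rsad2, viperin, was at 25.1 and 112 CPM in PyMT and 2.67 and 4.61 CPM in Neu (log2 fold change 4.23 with a standard error of 0.73, adjusted p = 0.00648). For Isg15, Irf7 and Rsad2 the higher PyMT value was that of replicate B. Irf9 was at 15.005 and 28.6 CPM in PyMT and 35.2 and 21.6 CPM in Neu (adjusted p = 0.474) and Irf1 at 4.86 and 6.25 CPM in PyMT and 27.6 and 9.34 CPM in Neu, higher in Neu (log2 fold change -1.72, adjusted p = 0.0397). Irf1 lost its call without either PyMT tumor or without Neu replicate A (adjusted p up to 0.206).

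Annexins and S100 proteins, which bind calcium and phospholipids or calcium alone, were higher in PyMT for 11 of 21 tested and in Neu for 2 (median log2 fold change 2.03), and 10 of the 11 held whichever library was left out. Anxa1 (ENSMUSG00000024659, chromosome 19 from 20373428 to 20390944) was at 2625 and 1669.9 CPM in PyMT and 99.8 and 119 CPM in Neu (log2 fold change 4.29 with a standard error of 0.34, adjusted p = 0.000577), and Anxa3 at 286 and 183 CPM in PyMT and 11.2 and 11.7 CPM in Neu (log2 fold change 4.36 with a standard error of 0.31, adjusted p = 0.000475). S100a8 was at 57.6 and 44.9 CPM in PyMT and 1.37 and 2.35 CPM in Neu (log2 fold change 4.77 with a standard error of 0.36, adjusted p = 0.000510), and its usual partner S100a9 had at most 1 UMI in a library and was not tested. Anxa2 was at 1336 and 1157 CPM in PyMT and 119 and 172 CPM in Neu (log2 fold change 3.10, adjusted p = 0.00103). The members higher in Neu were S100b, at 1.76 and 2.42 CPM in PyMT and 23.8 and 16.6 CPM in Neu (log2 fold change -3.25, adjusted p = 0.00125), and Anxa9, at 2.13 and 2.9003 CPM in PyMT and 6.901 and 6.84 CPM in Neu (log2 fold change -1.44, adjusted p = 0.0188), the latter without a call when PyMT replicate A, Neu replicate A or Neu replicate B was left out (adjusted p up to 0.0907). Anxa6 was at 139 and 150.1 CPM in PyMT and 237 and 167 CPM in Neu (adjusted p = 0.181).

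Among cytokines, Csf3 (ENSMUSG00000038067, chromosome 11 from 98701263 to 98703629), granulocyte colony-stimulating factor, was at 2343 and 408 CPM in PyMT and 31.6 and 7.31 CPM in Neu (log2 fold change 6.15 with a standard error of 1.10, adjusted p = 0.00737). Both A libraries had more of it than their B partners, and PyMT was higher in each batch. Ccl20, a chemokine for dendritic cells and lymphocytes, was at 30.1 and 10.1 CPM in PyMT and 0.431 and 0.176 CPM in Neu (log2 fold change 6.07 with a standard error of 0.72, adjusted p = 0.00194). Csf1, the macrophage growth factor, was at 32.9 and 76.6 CPM in PyMT and 10.7 and 15.9 CPM in Neu (log2 fold change 2.04 with a standard error of 0.43, adjusted p = 0.0132), and Cx3cl1, fractalkine, at 43.4 and 29.3 CPM in PyMT and 8.63 and 13.8 CPM in Neu (log2 fold change 1.69 with a standard error of 0.33, adjusted p = 0.0103). Csf1 lost its call without PyMT replicate B or Neu replicate A (adjusted p up to 0.0804), and Cx3cl1 without PyMT replicate A or Neu replicate A (adjusted p = 0.0560). Cxcl1, a neutrophil chemokine, followed the batch, at 680.3 and 189 CPM in PyMT and 358 and 78.6 CPM in Neu (log2 fold change 0.99, adjusted p = 0.358, and 0.00302 with the replicate block), as did Cxcl2, at 107 and 15.6 CPM in PyMT and 95.05 and 19.5 CPM in Neu (adjusted p = 0.949). Of 15 tested members 5 were higher in PyMT and 1 in Neu (median log2 fold change 0.99), and 2 and 0 held whichever library was left out. The share called was 40%, against 33.9% of all genes.

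NF-kB genes were higher in PyMT for 9 of 21 and in Neu for 1 (median log2 fold change 1.05), with 6 and 0 holding whichever library was left out. The subunit genes Rela, at 142 and 97.8 CPM in PyMT and 42.2 and 42.4 CPM in Neu (log2 fold change 1.503 with a standard error of 0.26, adjusted p = 0.00652), and Relb, at 84.4 and 52.99 CPM in PyMT and 15.96 and 17.6 CPM in Neu (log2 fold change 2.03 with a standard error of 0.29, adjusted p = 0.00328), were among the 9. Tnfaip2, a gene induced by tumor necrosis factor, was at 572 and 69.9 CPM in PyMT and 4.12 and 0.852 CPM in Neu (log2 fold change 7.04 with a standard error of 1.25, adjusted p = 0.00728), and Tnfrsf12a, the receptor of TWEAK, at 1512 and 1533 CPM in PyMT and 169 and 332 CPM in Neu (log2 fold change 2.61 with a standard error of 0.37, adjusted p = 0.00343). Tnfaip2 was higher in A than in B in both types. Nfkbia, the inhibitor that NF-kB induces, was at 879.6 and 384 CPM in PyMT and 420.1 and 174 CPM in Neu (log2 fold change 1.09, adjusted p = 0.149, and 0.00285 with the replicate block). Sod2, the mitochondrial superoxide dismutase, was higher in Neu, at 207 and 178 CPM in PyMT and 483 and 398 CPM in Neu (log2 fold change -1.19, adjusted p = 0.0117), without a call when either PyMT tumor or Neu replicate A was left out (adjusted p up to 0.0806). Icam1 was at 8.63 and 6.42 CPM in PyMT and 35.7 and 7.31 CPM in Neu (adjusted p = 0.122, and 0.0439 with the replicate block).

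Of 20 tested genes of STAT3 and involution 3 were higher in each tumor type (median log2 fold change 0.32), near the 16.6% and 17.4% of all genes. Of these calls 2 in PyMT and 1 in Neu held whichever library was left out. Lif, the cytokine that activates STAT3 in involution, was at 124 and 74.9 CPM in PyMT and 2.902 and 0.705 CPM in Neu (log2 fold change 5.81 with a standard error of 0.67, adjusted p = 0.00178), and Lrg1, a STAT3 target, at 227 and 249.9 CPM in PyMT and 53.5 and 48.5 CPM in Neu (log2 fold change 2.23 with a standard error of 0.23, adjusted p = 0.00119). Il6ra, the receptor of interleukin 6, was higher in Neu, at 1.09 and 2.25 CPM in PyMT and 16.5 and 21.9 CPM in Neu (log2 fold change -3.47 with a standard error of 0.41, adjusted p = 0.00184). Hif1a was also called, at 28.5 and 26.4 CPM in PyMT and 43.5 and 46.98 CPM in Neu (log2 fold change -0.72, adjusted p = 0.0377), but in none of the fits with a library left out (adjusted p up to 0.146). Stat3 itself was at 112 and 103 CPM in PyMT and 105 and 124 CPM in Neu (adjusted p = 0.776), Osmr, the oncostatin M receptor, at 63.5 and 43.4 CPM in PyMT and 47.1 and 42.6 CPM in Neu (adjusted p = 0.471), and Socs3 at 55.8 and 18.5 CPM in PyMT and 43.7 and 13.01 CPM in Neu (adjusted p = 0.675).

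MHC class II genes, which normally serve antigen-presenting cells, were higher in PyMT for 4 of 8 tested and in Neu for none (median log2 fold change 1.94), and all 4 held whichever library was left out. Cd74, the invariant chain, was at 449 and 488 CPM in PyMT and 6.195 and 2.41 CPM in Neu (log2 fold change 6.78 with a standard error of 0.52, adjusted p = 0.000531). H2-Ab1 (ENSMUSG00000073421, chromosome 17 from 34257689 to 34269419), a class II β chain, was at 152 and 147 CPM in PyMT and 2.51 and 2.06 CPM in Neu (log2 fold change 6.04 with a standard error of 0.28, adjusted p = 0.000241), its partner H2-Aa at 41.2 and 46.97 CPM in PyMT and 1.73 and 0.529 CPM in Neu (log2 fold change 5.32 with a standard error of 0.54, adjusted p = 0.00117), and H2-DMa, of peptide loading, at 24.1 and 29.4 CPM in PyMT and 4.59 and 4.17 CPM in Neu (log2 fold change 2.61 with a standard error of 0.27, adjusted p = 0.00119). The class II transactivator gene Ciita was at 0.121 and 1.07 CPM in PyMT and 0.627 and 0.294 CPM in Neu (adjusted p = 0.687). H2-Ab1 had a UMI in 24.01% and 27.4% of PyMT cells and 1.06% and 0.308% of Neu cells, each thinned to 3000 UMIs. Of the 20 leukocyte markers Cd68 was called, at 9.17 and 9.86 CPM in PyMT and 0.314 and 0.705 CPM in Neu (log2 fold change 4.18 with a standard error of 0.46, adjusted p = 0.00147), and it made up most of their summed level in PyMT. The other 5 tested, Lyz2, Tyrobp, Fcer1g, C1qa and C1qb, were not called and were at most 2.90 CPM, and Ptprc, Itgam and Adgre1 had at most 1 UMI in a library. H2-DMa overlaps Brd2 on the opposite strand.

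Of the genes of MHC class I presentation, 4 of 22 tested were higher in PyMT and 1 in Neu, against 16.6% and 17.4% of all genes (median log2 fold change 0.40), and none of these calls held in every fit with a library left out. B2m, the light chain, was at 3415 and 4762 CPM in PyMT and 3379.7 and 2122 CPM in Neu (adjusted p = 0.219), and H2-K1 at 1623 and 2439 CPM in PyMT and 2095 and 1261 CPM in Neu (adjusted p = 0.567). The called genes included the proteasome subunits Psmb8, at 385 and 573 CPM in PyMT and 206 and 127 CPM in Neu (log2 fold change 1.52, adjusted p = 0.0151), and Psmb10, at 63.4 and 92.98 CPM in PyMT and 43.2 and 31.98 CPM in Neu (log2 fold change 1.06, adjusted p = 0.0294), and the activator Psme2, at 217 and 281 CPM in PyMT and 125 and 121 CPM in Neu (log2 fold change 1.02, adjusted p = 0.0181). Psmb8 was not called without PyMT replicate B or Neu replicate B (adjusted p up to 0.0793), and Psmb10 and Psme2 not without PyMT replicate B, Neu replicate A or Neu replicate B (adjusted p up to 0.148 and 0.0953). With library totals the latter 2 were not called either.

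Of 28 inhibitors of the cell cycle, D cyclins and targets of p53, 13 were higher in PyMT and 3 in Neu (median log2 fold change 0.82), with 9 and 1 holding whichever library was left out. The INK4 genes of chromosome 4 were among them. Cdkn2a (ENSMUSG00000044303, chromosome 4 from 89274471 to 89294653), which encodes p16 and p19Arf, was at 46.7 and 123 CPM in PyMT and 1.45 and 2.38 CPM in Neu (log2 fold change 5.46 with a standard error of 0.56, adjusted p = 0.00124), and Cdkn2b, next to it, at 32.5 and 37.8 CPM in PyMT and 0.823 and 1.91 CPM in Neu (log2 fold change 4.66 with a standard error of 0.43, adjusted p = 0.000942). Mtap, on the other side of this pair, was at 20.1 and 24.2 CPM in PyMT and 13.2 and 3.35 CPM in Neu (adjusted p = 0.0976, and 0.0118 with the replicate block). Cdkn1a, which encodes p21 and is induced by p53, was at 829 and 946 CPM in PyMT and 13.5 and 86.3 CPM in Neu (log2 fold change 4.15, adjusted p = 0.0101). Mdm2, the ligase that p53 induces, was at 51.1 and 61.7 CPM in PyMT and 15.2 and 15.97 CPM in Neu (log2 fold change 1.86 with a standard error of 0.23, adjusted p = 0.00205), and Plk2, another target, at 92.4 and 76.9 CPM in PyMT and 10.4 and 9.22 CPM in Neu (log2 fold change 3.11 with a standard error of 0.24, adjusted p = 0.000531). Bax was at 181 and 182 CPM in PyMT and 70.7 and 68.3 CPM in Neu (log2 fold change 1.38, adjusted p = 0.00441). Cdkn1c, which encodes p57, was the opposite case, at 1.03 and 0.197 CPM in PyMT and 83.1 and 8.19 CPM in Neu (log2 fold change -6.43 with a standard error of 1.30, adjusted p = 0.0114), with most UMIs in Neu replicate A and no call without PyMT replicate B (adjusted p = 0.0764). Rb1 was at 17.1 and 13.5 CPM in PyMT and 12.2 and 12.7 CPM in Neu (adjusted p = 0.404), and Cdk4 at 129.9 and 141 CPM in PyMT and 119.8 and 112 CPM in Neu (adjusted p = 0.437).

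Few proliferation genes passed the test. Of 30, all tested, 1 was higher in PyMT and none in Neu (3.33% against 33.9% of all genes), and the median log2 fold change was -0.52. The 1 was Birc5, survivin, in the stretch at the end of chromosome 11, at 35.8 and 92.4 CPM in PyMT and 14.7 and 27.95 CPM in Neu (log2 fold change 1.59 with a standard error of 0.50, adjusted p = 0.0473). It lost its call without PyMT replicate B, Neu replicate A or Neu replicate B (adjusted p up to 0.255), and also with library totals, with the cell filters of the study, without the 5% of cells with most UMIs and with equal library totals (adjusted p up to 0.112). Mki67 was at 3.58 and 17.1 CPM in PyMT and 7.53 and 19.5 CPM in Neu (adjusted p = 0.720), Top2a at 4.56 and 18.95 CPM in PyMT and 8.31 and 18.1 CPM in Neu (adjusted p = 0.872), and Pcna at 30.6 and 48.8 CPM in PyMT and 28.7 and 36.4 CPM in Neu (adjusted p = 0.467). All of these were higher in replicate B than in replicate A of the same type, and for Mki67, Top2a and Pcna the PyMT and Neu values overlapped. With the replicate block 8 members were higher in Neu and 1 in PyMT, among them Cdk1, at 4.62 and 16.9 CPM in PyMT and 16.9 and 27.8 CPM in Neu (adjusted p = 0.199 without and 0.00850 with the block).

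Wnt genes were tested for 19 of 30, of which 3 were higher in PyMT and 4 in Neu (median log2 fold change -0.19), 36.8% called and near the 33.9% of all genes, and 3 and 1 held whichever library was left out. The ligand Wnt5b was at 187 and 95.5 CPM in PyMT and 5.33 and 11.7 CPM in Neu (log2 fold change 4.04 with a standard error of 0.50, adjusted p = 0.00222), and Wnt7b at 69.4 and 17.1 CPM in PyMT and 0.823 and 0.323 CPM in Neu (log2 fold change 6.27 with a standard error of 0.84, adjusted p = 0.00278). Of the nuclear factors of the pathway, Tcf7 was higher in PyMT, at 4.68 and 3.58 CPM in PyMT and 0.627 and 0.617 CPM in Neu (log2 fold change 2.72 with a standard error of 0.44, adjusted p = 0.00514), and Lef1 in Neu, with 2 and 0 UMIs in PyMT and 50 and 168 in Neu (adjusted p = 0.00674). Axin2, a common target, had at most 1 UMI in a library and was not tested. Ctnnb1, β-catenin, was at 119 and 100.05 CPM in PyMT and 88.7 and 75.9 CPM in Neu (adjusted p = 0.197).

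Of 13 tested Notch genes 2 were higher in PyMT and 1 in Neu, which is 23.1% called against 33.9% of all genes, a gap of 1 or 2 genes (median log2 fold change 0.40). Hey1, given with the progenitor genes, was the call that held whichever library was left out. Hey2 was at 1.03 and 0.479 CPM in PyMT and 0.157 and 0.0294 CPM in Neu (log2 fold change 3.01, adjusted p = 0.0393) and Maml1, a co-activator of Notch, at 6.86 and 7.38 CPM in PyMT and 2.12 and 3.88 CPM in Neu (log2 fold change 1.24, adjusted p = 0.0466). Hey2 was called in none of the fits with a library left out (adjusted p up to 0.217) and not by DESeq2, and Maml1 was not called without either PyMT tumor or without Neu replicate A (adjusted p up to 0.154). The receptors Notch1 and Notch3 were at 16.8 and 14.02 CPM in PyMT and 12.3 and 14.6 CPM in Neu (adjusted p = 0.577) and at 12.3 and 9.095 CPM in PyMT and 6.86 and 10.5 CPM in Neu (adjusted p = 0.497).

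Retinoic acid genes were higher in PyMT for 6 of 12 tested and in Neu for 1 (median log2 fold change 0.85), and 2 and 1 held whichever library was left out. Besides Aldh1a3, Dhrs9, a dehydrogenase of retinol, was at 4.62 and 5.12 CPM in PyMT and 0.0392 and 0.147 CPM in Neu (log2 fold change 5.57 with a standard error of 0.61, adjusted p = 0.00148). Dhrs3, which reduces retinal back to retinol, was higher in Neu, at 5.65 and 9.35 CPM in PyMT and 42.8 and 51.6 CPM in Neu (log2 fold change -2.64 with a standard error of 0.31, adjusted p = 0.00192). Rarg, a receptor of retinoic acid, was at 29.1 and 21.6 CPM in PyMT and 9.49 and 11.5 CPM in Neu (log2 fold change 1.27 with a standard error of 0.27, adjusted p = 0.0142) and was not called without PyMT replicate A or Neu replicate A (adjusted p up to 0.0747). Rara was at 16.1 and 8.79 CPM in PyMT and 9.25 and 12.1 CPM in Neu (adjusted p = 0.674).

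Cartilage-type matrix genes were higher in Neu for 7 of 14 tested and in PyMT for 2 (median log2 fold change -1.18), and 3 and 0 held whichever library was left out. Besides Chad, Comp (ENSMUSG00000031849, chromosome 8 from 70373558 to 70382066), cartilage oligomeric matrix protein, was at 0.364 and 0.394 CPM in PyMT and 135 and 138 CPM in Neu (log2 fold change -8.46 with a standard error of 0.31, adjusted p = 0.000239). Col9a1 (ENSMUSG00000026147, chromosome 1 from 24177610 to 24252684), a chain of type IX collagen, was at 67.98 and 69.7 CPM in PyMT and 1011 and 464 CPM in Neu (log2 fold change -3.42 with a standard error of 0.41, adjusted p = 0.00200). Its partner chain Col9a3 was higher in PyMT, at 85.3 and 61.8 CPM in PyMT and 32.5 and 35.9 CPM in Neu (log2 fold change 1.10 with a standard error of 0.25, adjusted p = 0.0160), without a call when PyMT replicate A, Neu replicate A or Neu replicate B was left out (adjusted p up to 0.0870). Col2a1 and Acan, the main components of cartilage, had at most 6 UMIs in a library and were not tested. Sox9, the transcription factor of cartilage that mammary progenitors also express, was at 118 and 151 CPM in PyMT and 92.5 and 110.5 CPM in Neu (adjusted p = 0.221).

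Of 21 tested transporters and channels 6 were higher in Neu and 2 in PyMT (median log2 fold change -0.66), and 4 and 1 held whichever library was left out. The share called was 38.1%, near the 33.9% of all genes. Aqp5 (ENSMUSG00000044217, chromosome 15 from 99590782 to 99594829), a water channel of glandular epithelium, was at 200.04 and 401 CPM in PyMT and 6831 and 5534 CPM in Neu (log2 fold change -4.36 with a standard error of 0.43, adjusted p = 0.00109). Slc12a2, the basolateral cotransporter of sodium, potassium and chloride, was at 25.5 and 38.4 CPM in PyMT and 205 and 474 CPM in Neu (log2 fold change -3.41, adjusted p = 0.00287), and Slc39a8, a zinc and manganese importer, at 0.0607 and 0.0563 CPM in PyMT and 2.47 and 2.23 CPM in Neu (log2 fold change -5.24 with a standard error of 0.63, adjusted p = 0.00199). Slc2a1, the glucose transporter GLUT1, was higher in PyMT, at 202 and 228 CPM in PyMT and 68.97 and 53.3 CPM in Neu (log2 fold change 1.81 with a standard error of 0.24, adjusted p = 0.00286).

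Of 9 tested IGF genes 1 was higher in PyMT and 2 in Neu, and of 12 tested imprinted genes 1 and 2. The shares called were 33.3% and 25%, against 33.9% of all genes. Igfals, which encodes the acid-labile subunit of circulating IGF complexes, was at 8.75 and 10.4 CPM in PyMT and 188 and 97.5 CPM in Neu (log2 fold change -3.90 with a standard error of 0.38, adjusted p = 0.00105). Igfbp3 was at 5.53 and 6.17 CPM in PyMT and 0.118 and 0.763 CPM in Neu (log2 fold change 3.66 with a standard error of 0.71, adjusted p = 0.00995), and the receptor Igf1r at 1.21 and 1.83 CPM in PyMT and 5.097 and 8.22 CPM in Neu (log2 fold change -2.10 with a standard error of 0.42, adjusted p = 0.0111), the latter without a call when PyMT replicate A or Neu replicate B was left out (adjusted p up to 0.0596). Igf2 had no UMI in any library. Grb10, an imprinted adaptor that restrains insulin and IGF receptors, was at 0.486 and 0.0845 CPM in PyMT and 16.2 and 11.6 CPM in Neu (log2 fold change -5.87 with a standard error of 0.67, adjusted p = 0.00165), and Peg3 at 2.73 and 11.5 CPM in PyMT and 1.37 and 0.793 CPM in Neu (log2 fold change 2.74 with a standard error of 0.71, adjusted p = 0.0264), a call lost without PyMT replicate B, Neu replicate A or Neu replicate B (adjusted p up to 0.184). Gnas was at 1102 and 1028 CPM in PyMT and 1110.03 and 1219.98 CPM in Neu (adjusted p = 0.698).

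Genes of energy metabolism made up 2 lists. Of 16 glycolysis genes 2 were higher in each type, 25% called (median log2 fold change 0.01), and of 47 genes of oxidative phosphorylation also 2 and 2 (median log2 fold change -0.30), which is 8.51% called against 33.9% of all genes. Pfkfb3, the enzyme that makes the activator of phosphofructokinase, was at 25.5 and 10.9 CPM in PyMT and 1.69 and 1.703 CPM in Neu (log2 fold change 3.41 with a standard error of 0.46, adjusted p = 0.00295), and the hexokinase Hk1 at 38.4 and 44.1 CPM in PyMT and 133 and 99.6 CPM in Neu (log2 fold change -1.49 with a standard error of 0.25, adjusted p = 0.00566). Pfkl was at 130.5 and 129 CPM in PyMT and 328 and 186 CPM in Neu (log2 fold change -0.99, adjusted p = 0.0473), without a call when either PyMT tumor or Neu replicate A was left out (adjusted p up to 0.238). Atp5h, a subunit of ATP synthase in the stretch at the end of chromosome 11, was at 1839.5 and 1955 CPM in PyMT and 628 and 786 CPM in Neu (log2 fold change 1.42 with a standard error of 0.26, adjusted p = 0.00757). Gapdh was higher in replicate B than in A of both types, at 1723 and 2591 CPM in PyMT and 1326 and 3308 CPM in Neu (adjusted p = 0.878). With library totals 9 genes of oxidative phosphorylation were higher in Neu and 2 in PyMT.

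Of 25 genes of endoplasmic reticulum stress 2 were higher in each type (median log2 fold change -0.09), which is 16% called against 33.9% of all genes. Atf4, the factor of the integrated stress response, was at 575 and 583 CPM in PyMT and 153 and 244 CPM in Neu (log2 fold change 1.54 with a standard error of 0.29, adjusted p = 0.00928), and its target Chac1 at 54.1 and 80.7 CPM in PyMT and 1.02 and 10.98 CPM in Neu (log2 fold change 3.47 with a standard error of 0.90, adjusted p = 0.0266). Xbp1, the factor of secretory cells, was higher in Neu, at 183 and 249 CPM in PyMT and 589 and 828 CPM in Neu (log2 fold change -1.71 with a standard error of 0.29, adjusted p = 0.00653). Chac1 was not called without either PyMT library (adjusted p up to 0.0978), nor Xbp1 without PyMT replicate A (adjusted p = 0.0533). The chaperone Hspa5 was at 659.97 and 732 CPM in PyMT and 553 and 406 CPM in Neu (adjusted p = 0.151).

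Immediate early genes, which respond within minutes to growth factors and also to tissue dissociation, were higher in PyMT for 10 of 24 and in Neu for 2 (median log2 fold change 0.78), and 9 and 0 held whichever library was left out. Cyr61, a matricellular protein induced by YAP, was at 1331 and 1042 CPM in PyMT and 68.9 and 62.7 CPM in Neu (log2 fold change 4.17 with a standard error of 0.28, adjusted p = 0.000462), and Ctgf, its relative, at 3.098 and 7.94 CPM in PyMT and 0.0784 and 0.117 CPM in Neu (log2 fold change 5.74 with a standard error of 0.71, adjusted p = 0.00214). Klf6 was at 1342 and 1382 CPM in PyMT and 138 and 182 CPM in Neu (log2 fold change 3.09 with a standard error of 0.27, adjusted p = 0.000810). Fos took the other direction, at 149 and 178 CPM in PyMT and 642 and 247 CPM in Neu (log2 fold change -1.45, adjusted p = 0.0445), with the most in Neu replicate A and no call without either PyMT tumor or without Neu replicate A (adjusted p up to 0.213). Jun was at 276 and 339.95 CPM in PyMT and 245 and 230.4 CPM in Neu (adjusted p = 0.251), and Junb at 781 and 587 CPM in PyMT and 569 and 332 CPM in Neu (adjusted p = 0.194, and 0.0480 with the replicate block). The part of tissue dissociation in these values was not tested.

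**Figure D5:**
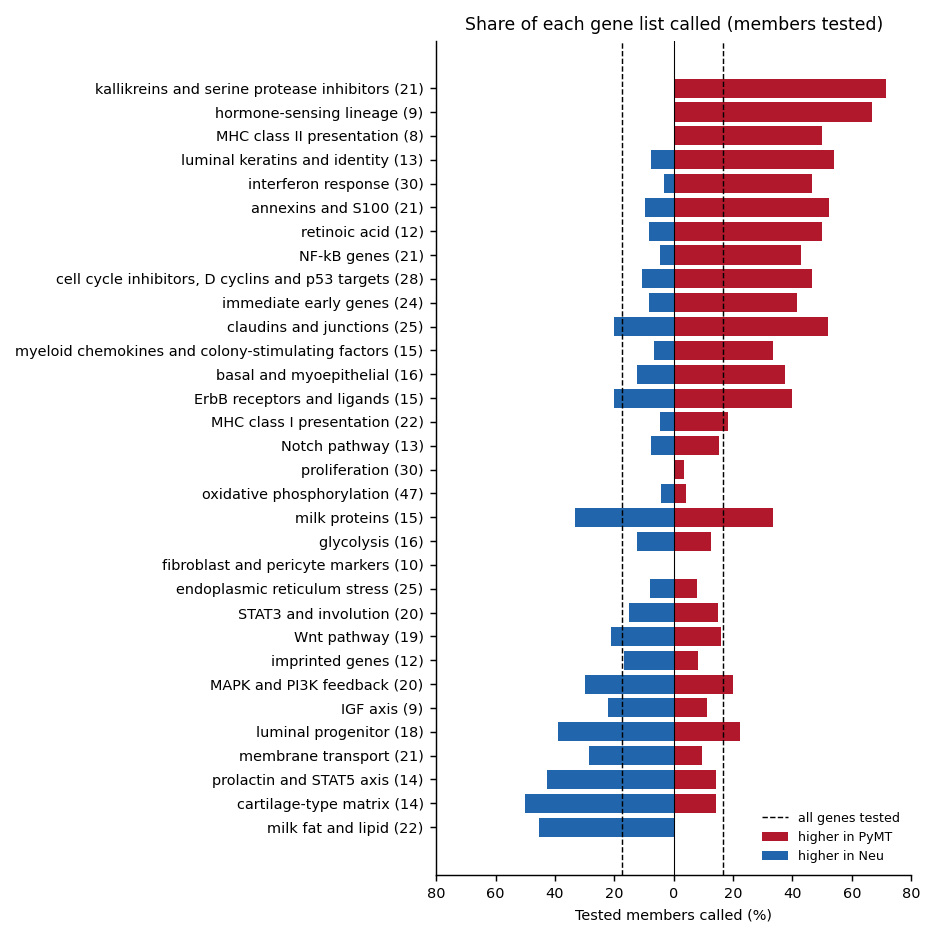
Percentage of the tested members of each list (number in brackets) that were higher in PyMT (red, to the right) or higher in Neu (blue, to the left) at an adjusted p under 0.05, for lists with at least 8 tested members. Dashed lines mark the same percentages over all tested genes, 16.6% and 17.4%. Proliferation and oxidative phosphorylation genes lie inside both lines. Kallikreins, hormone-sensing genes and milk fat genes were called on 1 side only in the fit drawn.

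Of 28 genes that the study names for PyMT or Neu cells, 11 were higher in PyMT and 9 in Neu, and since they were picked on these libraries their direction is not independent evidence. Of the 8 that did not pass, Malat1, a nuclear RNA, was at 24355 and 12557 CPM in PyMT and 10136 and 8666 CPM in Neu (adjusted p = 0.0863), Tyms at 12.5 and 29.9 CPM in PyMT and 27.7 and 29.7 CPM in Neu (adjusted p = 0.432) and Bcl3 at 49.7 and 28.3 CPM in PyMT and 55.1 and 56.1 CPM in Neu (adjusted p = 0.220). A few calls came from genes named after other cell types. Flt1, a receptor of VEGF known from endothelium, was at 24.4 and 8.93 CPM in PyMT and 0.235 and 0.294 CPM in Neu (log2 fold change 5.93 with a standard error of 0.63, adjusted p = 0.00138), with Pecam1 at 1.64 and 0.676 CPM in PyMT and 1.14 and 1.47 CPM in Neu (adjusted p = 0.794). Alas2, an enzyme of heme synthesis known from red cells, was at 0.0607 and 0.0845 CPM in PyMT and 3.96 and 2.995 CPM in Neu (log2 fold change -5.43 with a standard error of 0.59, adjusted p = 0.00145), while the hemoglobin gene Hba-a1 had 0 and 19 UMIs in PyMT and 0 and 6 in Neu.

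A sum cannot tell fewer cells with a transcript from less RNA in each cell, so the share of cells with at least 1 UMI was taken at a fixed depth of 3000 UMIs per cell, over 1849, 1794, 2075 and 1948 cells of PyMT A, PyMT B, Neu A and Neu B. Shallower cells, 98, 48, 233 and 49 in the same order, were left out. The exact 95% Clopper-Pearson interval of a share was at most 4.68 percentage points wide and covers counting error only. Spp1 was seen in 97.9% and 95.99% of PyMT cells and 27.5% and 13.2% of Neu cells, and Apoc1 in 1.41% and 3.23% of PyMT cells and 82.9% and 99.6% of Neu cells. At this depth each of these transcripts was seen in most cells of 1 tumor type only. At full depth Spp1 was seen in most cells of both types. Without thinning the shares were 99.6%, 99.7%, 58.8% and 50.6% for Spp1 and 3.85%, 16.9%, 90.4% and 99.8% for Apoc1 in PyMT A, PyMT B, Neu A and Neu B. Csn1s1 was seen in 18.4% and 42.3% of PyMT cells and 93.8% and 89.4% of Neu cells, and Lalba in 22.01% and 54.2% of PyMT cells and 95.2% and 92.5% of Neu cells. For both genes the share in PyMT was lower in replicate A than in replicate B. Unthinned shares were 38.6%, 76.3%, 97.1% and 98.8% for Csn1s1 and 38.4%, 78.9%, 96.1% and 97.4% for Lalba in the same order. Krt19 was seen in 37.2% and 1.11% of PyMT cells and 1.11% and 0.359% of Neu cells, so that its level in PyMT came mostly from replicate A. Cdkn2a was seen in 10.8% and 28.5% of PyMT cells and 0.241% and 0.359% of Neu cells, and Csf3 in 64.95% and 26.8% of PyMT cells and 5.73% and 1.03% of Neu cells. Without thinning the shares were 53.3%, 3.69%, 2.296% and 1.65% for Krt19, 27.9%, 79.9%, 1.2998% and 3.25% for Cdkn2a and 76.01%, 44.8%, 13.6% and 3.66% for Csf3. No cells that should lack these genes were set apart in the libraries, so shares due to free RNA were not measured, and shares of a few percent are not read as expression.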

How the data were processed

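Tumor cells from FVB/NJ mice were sorted as CD24+ and negative for CD31, CD45 and Ter119, and 1 library was made per tumor with the droplet-based 3′ chemistry of 10x Genomics. Per the labels and the methods of the study, the authors mapped reads to mm10 and deposited UMI counts per gene and barcode. Their processing notes name Cell Ranger 2.2.0 for both A libraries and 3.0.2 for both B libraries, while the header of every matrix names 3.0.2, and the strand setting of the counting was not stated in the labels or methods.

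From the deposited counts, cells were kept by the limits given above and their UMIs summed per tumor. Genes passing filterByExpr were tested with the quasi-likelihood test of edgeR 4.0.16 (TMM, Benjamini-Hochberg adjustment, adjusted p under 0.05, 2 residual degrees of freedom, R 4.3.3). Each standard error given was back-calculated, as the absolute log2 fold change divided by the square root of the F statistic of that test. CPM are summed UMIs per 1000000 UMIs of the library size, scaled by TMM factors of 0.909 and 0.943 in PyMT and 1.15 and 1.01 in Neu. All p-values refer to the spread between 2 tumors a side, estimated with information shared across genes. In PyMT that is the spread between grafts of the same line and not between tumors of separate origin. The study ran no test over tumors, and no doublet caller was run here. The replicate letter is the sequencing batch, and the differences between replicates B and A had a Pearson's r of 0.185 between tumor types over the tested genes, so a fit with the letter as a block was made as an alternative.

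The genes named were, in each direction, the 12 largest changes among called genes of at least 50 CPM without overlap of libraries, up to 4 called genes of each of 37 lists by adjusted p, and the genes the study names, 143 in all, of which some are not reported here. Uncalled members of a list were named at will. Other called genes (among them Stat5b, Socs1, Cish, Srebf1, Scd1, Xdh, Wfdc18, Gata3, Slpi, Kit, Krt14, Trp63, Cldn1, Cldn7, Cdh3, Egfr, Dusp6, Etv5, Spry2, Irs1, Myc, Klk11 to Klk14, Plat, Serpinb5, Ifi204, Gm48882, Cradd, Irf1, Anxa2, Anxa9, S100b, Sod2, Cdkn1a, Bax, Slc12a2 and Fos) were chosen after their values were seen. The groups, members and lists were chosen with earlier results of these data known, and the runs of neighbors, the 10-Mb windows, the end of chromosome 11 and the motif search in prolactin and STAT5 genes were added after seeing the data. Of the named genes 19 overlap a tested gene on the opposite strand.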

Additional observations from a re-analysis of the deposited data

How the results depend on the processing

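The 4299 genes called, 2099 higher in PyMT and 2200 higher in Neu, stayed within 1.5 times these counts with DESeq2 size factors, DESeq2's Wald test (2283 and 2298), the cell filters of the study, every barcode, a mitochondrial limit of 10%, without the 5% of cells with most UMIs, without cells holding other cell types' markers, with equal library totals (2012 and 2034), with 3000 UMIs per cell (1741 and 1807) and with library totals only. Without a filter on low counts 2657 and 2847 of 18406 genes were called, but the estimated prior degrees of freedom were then infinite, against 4.79 in the fit reported, so its p-values are not used. No called gene changed sign in any of these fits. Leaving out each library in turn gave 2248 to 2706 calls, 1089 to 1324 higher in PyMT and 1124 to 1444 higher in Neu, with the lone tumor of a type assumed to vary like the pair of the other, and 17 to 22 of the 143 named genes lost their call. With the replicate block 2700 and 2679 genes (5379 in all) were called, of which 4290 were among the 4299, with 1 residual degree of freedom. Of 342 uncalled list members 62 passed with the block, and of 239 called ones only Il1b lost its call (adjusted p = 0.0614). It changed no other call of a named gene than those given. Library totals ended the calls of Psme2, Psmb10, Birc5, Maml1 and Cd14, Birc5 was also lost with 3 other settings, Maml1 and Cd14 also with 3000 UMIs per cell, and Hey2 with DESeq2's Wald test and without the 5% of cells with most UMIs. Among genes of the lists 137 of the 239 calls held whichever library was left out. Depth limited the counts most at low levels, since 3 UMIs were 0.0845 to 0.182 CPM and 12668 genes passed the filter.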

Other observations

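Across chromosomes the median log2 fold change ranged from -0.16 on chromosome 9 to 0.14 on chromosomes 11 and 12. On chromosome 12 the median was 0.31 within replicate A and -0.02 within replicate B. On chromosome 11 the genes outside the end stretch described above had a median of -0.04. Chromosome 9 had the largest share of genes higher in Neu, 167 of 714 (23.4%), and its median was -0.23 within replicate A and -0.08 within replicate B.

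Of the shorter runs of neighboring called genes, a handful are named here, chosen after their values were seen. Hoxb4, Hoxb3os and Hoxb2 of a homeobox cluster, Krt19, Krt14 and Krt16 of the type I keratin cluster, and the chemokine genes Ccl5, Ccl9 and Ccl6 were runs of 3 genes higher in PyMT. In Neu, Aqp5 formed such a run with its neighbors Aqp2, another aquaporin gene, and Faim2, and Lalba with Zfp641 and Olfr279.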
